A study of Mus musculus with 1279 samples.

Results

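The thrombospondin genes Thbs1, Thbs2, Thbs3 and Thbs4 and the gene Comp, whose product is also called thrombospondin-5, were described here across cells of the adult mouse heart. The 5 genes were found by their symbols among the 46517 genes of a table of raw read counts, and all 5 had reads. The table held 926 fibroblasts and 353 mural cells, sorted individually into plate wells and sequenced with Smart-seq2, a full-length cDNA method without molecular identifiers. The mice were adult males aged 10 to 20 weeks, and cells carrying the endothelial protein CD31 were excluded in the sort. The labels give for each cell the strain and a cluster, numbered 1 to 8 by the authors. C57BL6 cells (45.4% of all) were stained with antibodies to the receptors PDGFRα or PDGFRβ. PdgfrbGFP cells (28.5%), Cspg4dsRED cells (12.7%) and Acta2GFP cells (13.4%) were sorted by a fluorescent reporter driven by regulatory sequences of Pdgfrb, Cspg4 or Acta2, so each strain shows only cells that its sort could reach, and elastase was added to the digestion for Acta2GFP. The study places clusters 1 to 5 (5.47%, 17.1%, 8.76%, 18.2% and 22.8% of the cells) among fibroblasts and takes cluster 1 as likely valve interstitial cells. Clusters 6, 7 and 8 (3.05%, 9.23% and 15.3%) are taken here as large-vessel smooth muscle cells, vascular smooth muscle cells and pericytes, which together are called mural cells. The strain served as the replicate. Its animals, sort and plates cannot be told apart, so p-values measure the spread between these strains only.

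Thrombospondins are secreted, calcium-binding glycoproteins that join into multimers and link cells to the extracellular matrix. Thrombospondin-1 and thrombospondin-2 form trimers, bind the receptors CD36 and CD47 and inhibit the growth of new vessels, and thrombospondin-1 can also release TGF-beta from its latent complex. Thrombospondin-3, thrombospondin-4 and COMP form pentamers and lack the repeats that bind CD36. COMP binds fibrillar collagens and is abundant in cartilage and tendon, and thrombospondin-4 is found in tendon, muscle and the stressed heart.

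On the mouse assembly GRCm38, with gene models of GENCODE M21, Thbs1 (ENSMUSG00000040152) lies on the plus strand at chr2:118111876-118127133 and Thbs2 (ENSMUSG00000023885) on the minus strand at chr17:14665500-14694235. Thbs3 (ENSMUSG00000028047) lies on the plus strand at chr3:89215180-89226837, Thbs4 (ENSMUSG00000021702) on the minus strand at chr13:92751590-92794818 and Comp (ENSMUSG00000031849) on the plus strand at chr8:70373558-70382066. Their merged exons cover 6073, 7003, 4823, 3289 and 2967 bases in that order. The table held 91308 reads of Thbs1, 181071 of Thbs2, 44725 of Thbs3, 27575 of Thbs4 and 72395 of Comp. No stretch of 50 bases, the read length, was common to the transcripts of any pair of the 5 genes. Gm29233, a non-coding gene on the opposite strand, shares 208 exon bases with Thbs1, which are 3.42% of the Thbs1 exons and 74.02% of its own. Mtx1, on the strand opposite Thbs3, shares 318 exon bases, or 6.59% of the Thbs3 exons. The strand setting of the counting is not given in the sources used here, so reads from those bases cannot be assigned to a strand.

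Promoter windows of 3 of the 5 genes were taken from RefSeq on GRCm38.p6 and are shown so that the sequence before Thbs4, which was called between clusters further below, can be set against that before Thbs2 and Thbs3. Each runs 5′ to 3′ on the gene's strand from 250 bases before the start to 50 bases after it. They are chr17:14694213-14694512 on the minus strand for Thbs2, chr3:89214930-89215229 on the plus strand for Thbs3 and chr13:92794769-92795068 on the minus strand for Thbs4. Thbs1 and Comp were not matched. Capitals mark matches, on either strand, to the TATA box TATAAA, the GC box GGGCGG, the CCAAT box CCAAT, the AP-1 site TGANTCA or the E-box CANNTG, and no marked matches overlap.
Thbs2: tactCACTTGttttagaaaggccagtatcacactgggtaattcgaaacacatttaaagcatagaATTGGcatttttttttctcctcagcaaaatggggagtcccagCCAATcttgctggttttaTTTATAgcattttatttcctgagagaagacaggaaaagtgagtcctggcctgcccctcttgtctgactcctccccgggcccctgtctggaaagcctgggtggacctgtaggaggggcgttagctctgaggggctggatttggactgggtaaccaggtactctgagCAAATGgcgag
Thbs3: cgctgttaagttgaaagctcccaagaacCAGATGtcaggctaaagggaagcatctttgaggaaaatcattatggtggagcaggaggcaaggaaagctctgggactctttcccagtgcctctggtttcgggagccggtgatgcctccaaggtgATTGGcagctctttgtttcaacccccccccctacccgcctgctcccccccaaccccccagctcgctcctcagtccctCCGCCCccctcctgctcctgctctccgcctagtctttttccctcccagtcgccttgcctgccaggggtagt
Thbs4: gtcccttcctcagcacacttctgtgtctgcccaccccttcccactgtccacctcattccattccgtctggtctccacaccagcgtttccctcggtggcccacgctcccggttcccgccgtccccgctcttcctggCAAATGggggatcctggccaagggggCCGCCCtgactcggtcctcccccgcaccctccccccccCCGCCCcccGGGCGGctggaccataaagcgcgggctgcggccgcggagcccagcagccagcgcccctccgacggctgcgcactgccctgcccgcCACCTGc
The Thbs4 window had a GC content of 72%, higher than that of 93.1% of the 32544 promoters of the same length, and held 3 GC boxes and 2 E-boxes. The Thbs3 window had a GC content of 59% and held 1 GC box, 1 CCAAT box and 1 E-box. The Thbs2 window had a GC content of 48.3% and held 1 TATA box, whose first base lies at position -126, 2 CCAAT boxes and 2 E-boxes. Over all promoters, TATAAA was present in 13.6%, GGGCGG in 35.9%, CCAAT in 37.4%, TGANTCA in 7.79% and CANNTG in 72.3%. These matches describe letters in the windows and not sites in use.

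A cell had a median of 274504 counts in genes, and the shallowest and deepest cells had 46268 and 1302397. With CPM meaning counts per 1e+06 counts in genes, the summed CPM of 5 fibroblast markers averaged between 11878 and 14070 in clusters 1 to 5, 546 in cluster 7 and 1716 in cluster 8. Cluster 6 stood between, with 6274 ± 5384 (SD, n = 3 strains), and there its 3 C57BL6 cells summed to 12491 CPM. Smooth muscle markers were highest in clusters 6 and 7 (11450 and 12725 CPM) and pericyte markers in cluster 8 (17298 CPM). The 5 general mural markers averaged 1693 CPM in cluster 6, below the 7523 and 9440 CPM of clusters 7 and 8. In clusters 1 to 5 they averaged between 51.6 and 351 CPM. Of the other cell types, endothelial markers averaged at most 115.7 CPM, immune markers at most 62.1 CPM and Schwann cell markers at most 3.90 CPM in any cluster. Cardiac muscle markers were higher, with means of 386, 295, 112.1 and 110.5 CPM for clusters 6, 7, 1 and 8 and of 14.2 to 39.9 CPM for the remaining fibroblast clusters, and their part in the results was not tested. Platelets are rich in thrombospondin-1 protein, and 5 platelet markers averaged between 14.7 and 61.5 CPM per cluster. In cluster 1, where Thbs1 was highest, they averaged 23.1 CPM, of which Gp1bb had 17.35, Ppbp 3.76, Itga2b 1.87, Pf4 0.127 and Gp9 0, and their part in the Thbs1 level was not tested.

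Low counts were more frequent near wells with many reads for most genes and plates. For each gene and plate, the well with most reads was taken, and cells under 100 CPM were split into those in its row or column and the others. The share of cells with a read was higher in the row or column in 23 of 25 pairs of a gene and a plate, and not in the other 2 (Thbs3 on the C57BL6 plate with 329 cells, at 34.5% against 36.4%, and Thbs2 on the Cspg4dsRED plate, at 25% against 28.2%). On the C57BL6 plate with 251 cells, 93.9% of such cells in the row or column of the top Thbs4 well had a Thbs4 read, against 4.67% of the others. On the PdgfrbGFP plate these shares were 80% and 12.3%. On the Acta2GFP plate they were 100% and 99.2%, so nearly every well there had Thbs4 reads, with a median of 7 reads. For Comp, the shares on the C57BL6 plate with 329 cells were 100% and 49.6%. Cells under 100 CPM held between 0.984% and 5.76% of the reads of a gene on a plate, except for Thbs4 on the Acta2GFP plate, where they held 14.9%. For this reason cells are counted below at 100 CPM or more, a limit chosen after seeing the data, and a level of a few CPM is not read as expression.

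**Figure D1:**
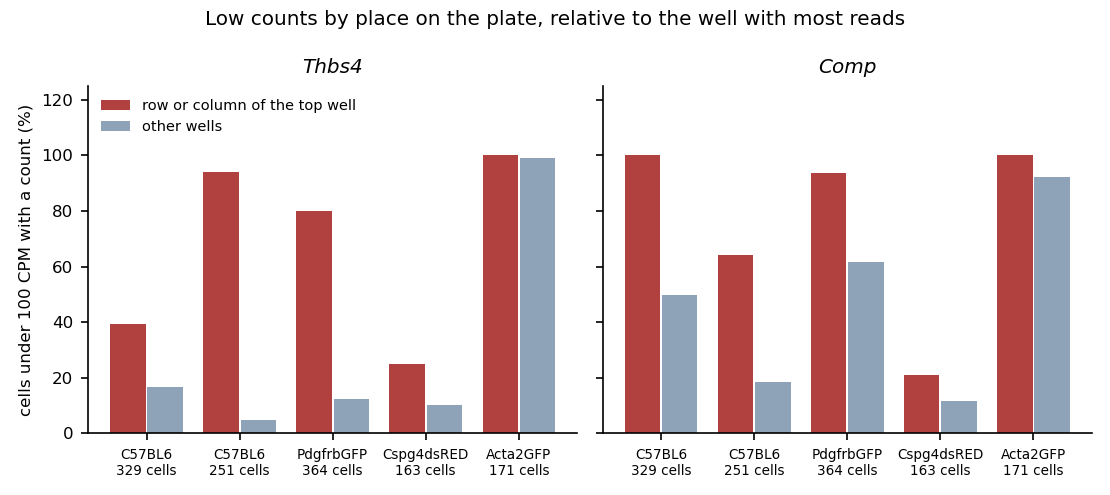
Percent of the cells under 100 CPM that had at least 1 read of the gene named above each panel (vertical axis), per plate (horizontal axis, with the number of cells), for wells in the row or column of the well with most reads (red) and for other wells (grey-blue). The red bar is the higher on most plates, as for Thbs4 on the 251-cell C57BL6 plate (93.9% against 4.67%), and both bars are near 100% for Thbs4 in Acta2GFP.

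Levels are given as CPM of the counts summed over the cells of a strain and cluster, with means over strains that had at least 3 cells. In bulk sums of this kind, fewer cells with a transcript and less RNA per cell cannot be told apart, and the shares of cells further below give the first of these.

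Thbs1 was highest in cluster 1, at 1209 CPM in C57BL6, 622 CPM in PdgfrbGFP, 2704 CPM in Cspg4dsRED and 1947 CPM in Acta2GFP (mean 1621 ± 903, SD, n = 4 strains). All 4 values lay above every value of clusters 2, 3, 4, 5 and 8. The Cspg4dsRED sum of cluster 1 held 3 cells, and without the cell with most reads its Thbs1 level was 2000 CPM. Cluster 2 had 178.6, 119.8, 145.9 and 208 CPM in the same order of strains, and cluster 4 had 111.4, 23.05, 278 and 239 CPM. The mural clusters also varied between strains: cluster 7 had 2.45 CPM in PdgfrbGFP, 622 CPM in Cspg4dsRED and 204 CPM in Acta2GFP, and cluster 6 had 0, 168.03 and 1256 CPM in C57BL6, Cspg4dsRED and Acta2GFP. The value of 0 came from 3 cells, in which a count of 0 allows up to 2.94 CPM, and in the Acta2GFP cells of cluster 6 a single cell at 2946 CPM held 99.3% of the reads. In Cspg4dsRED 1 of 33 cells of cluster 6 held 87.2%, and the level without it was 22.5 CPM. Cluster 8 was low, with a mean of 54.6 ± 72 CPM (n = 4), and its highest value, 160.9 CPM in Cspg4dsRED, was 21.6 CPM without 1 cell that held 87.4% of the reads. In the order of means (1, 6, 7, 2, 4, 5, 3, 8), neighbouring clusters overlapped in their strain values except for clusters 5 and 3.

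Thbs2 was present in every cluster and had no cluster as far above the rest. Its mean was 827 ± 262 CPM in cluster 2, 745 ± 288 CPM in cluster 1 (both n = 4), 597 ± 368 CPM in cluster 3 (n = 3) and 591 ± 60.8 CPM in cluster 5 (n = 2). Cluster 4 was the lowest fibroblast cluster, with 141.8 CPM in C57BL6, 299 CPM in PdgfrbGFP, 165.3 CPM in Cspg4dsRED and 362 CPM in Acta2GFP. Among mural cells, cluster 6 had 226, 186 and 199 CPM in C57BL6, Cspg4dsRED and Acta2GFP, which were 73.2, 152.8 and 58.8 CPM without the cell with most reads in each sum, and cluster 8 ran from 97.05 CPM in Cspg4dsRED to 1125 CPM in Acta2GFP. The lowest mean was that of cluster 7, at 90.9 ± 85.2 CPM (n = 3). Only the clusters with the lowest means, 6 and 7, did not overlap as neighbours.

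Thbs3, a pentamer gene like Thbs4 and Comp, had fibroblast means between 81.6 CPM in cluster 5 and 171.2 CPM in cluster 4. Its strains disagreed in cluster 1, with 82.3 CPM in C57BL6, 252 CPM in PdgfrbGFP, 19.7 CPM in Cspg4dsRED and 56.4 CPM in Acta2GFP. Cluster 7 was low in each strain with at least 3 cells, between 3.85 and 11.7 CPM. Cluster 8 ranged from 0.30 CPM in Cspg4dsRED to 137.4 CPM in Acta2GFP. Each pair of neighbours in the order of means (4, 2, 3, 1, 5, 8, 6, 7) overlapped.

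Thbs4 was concentrated in clusters 1 and 4. In cluster 1 it had 619 CPM in C57BL6, 168.96 CPM in PdgfrbGFP, 1660 CPM in Cspg4dsRED and 664 CPM in Acta2GFP (mean 778 ± 629, n = 4). The value of the 3 Cspg4dsRED cells was 915 CPM without the cell with most reads. In cluster 4 it had 126.8, 174.6, 190.5 and 73.9 CPM in the same order (mean 141.4 ± 52.6, n = 4). Both clusters overlapped with each other and lay above all values of the other 6 clusters. Single cells held much of these reads: in cluster 4, 1 of 13 Cspg4dsRED cells held 98.7%, and the level without it was 2.74 CPM. The cluster 4 level fell to 67.7 CPM in C57BL6 and 94.2 CPM in PdgfrbGFP without 1 cell each, which held 47.4% and 47.3% of the reads. In PdgfrbGFP, 1 of the 22 cells of cluster 1 held 78.1%, and the level without it was 39.5 CPM. The levels of 2.74 and 39.5 CPM fall among the values of the other clusters. The means of the other 6 clusters ran from 5.75 CPM in cluster 5 to 21.4 CPM in cluster 2. The highest value outside clusters 1 and 4 was 57.8 CPM in cluster 2 of Acta2GFP, the strain in which nearly every well had Thbs4 reads. In PdgfrbGFP cells of cluster 3 the count was 0, which allows up to 1.39 CPM over 7 cells.

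Comp was likewise highest in cluster 1 and raised in cluster 4. Cluster 1 had 1850 CPM in C57BL6, 2468 CPM in PdgfrbGFP, 1383 CPM in Cspg4dsRED and 981 CPM in Acta2GFP (mean 1671 ± 640, n = 4). The value of the 3 Cspg4dsRED cells was 795.7 CPM without the cell with most reads. Cluster 4 had 244, 388, 306 and 192 CPM (mean 282 ± 84.6, n = 4). Cluster 2 had between 2.46 and 14.7 CPM, and clusters 3 and 5 had means of 24.6 and 29.8 CPM. In cluster 5, 1 cell of each strain held most Comp reads, and the levels without it were 12.3 CPM in C57BL6 and 7.24 CPM in PdgfrbGFP. Mural cells were low except for cluster 6 of C57BL6, at 1291 CPM against 6.66 CPM in Cspg4dsRED and 14.6 CPM in Acta2GFP. That value came from 3 cells, of which 1 had 2995 CPM and 99.5% of the reads, with 15838 CPM of fibroblast markers and 13019 CPM of smooth muscle markers, and the other 2 had 21.2 CPM and 0. Comp in mural cells is therefore given with and without the C57BL6 cells of cluster 6.

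**Figure D2:**
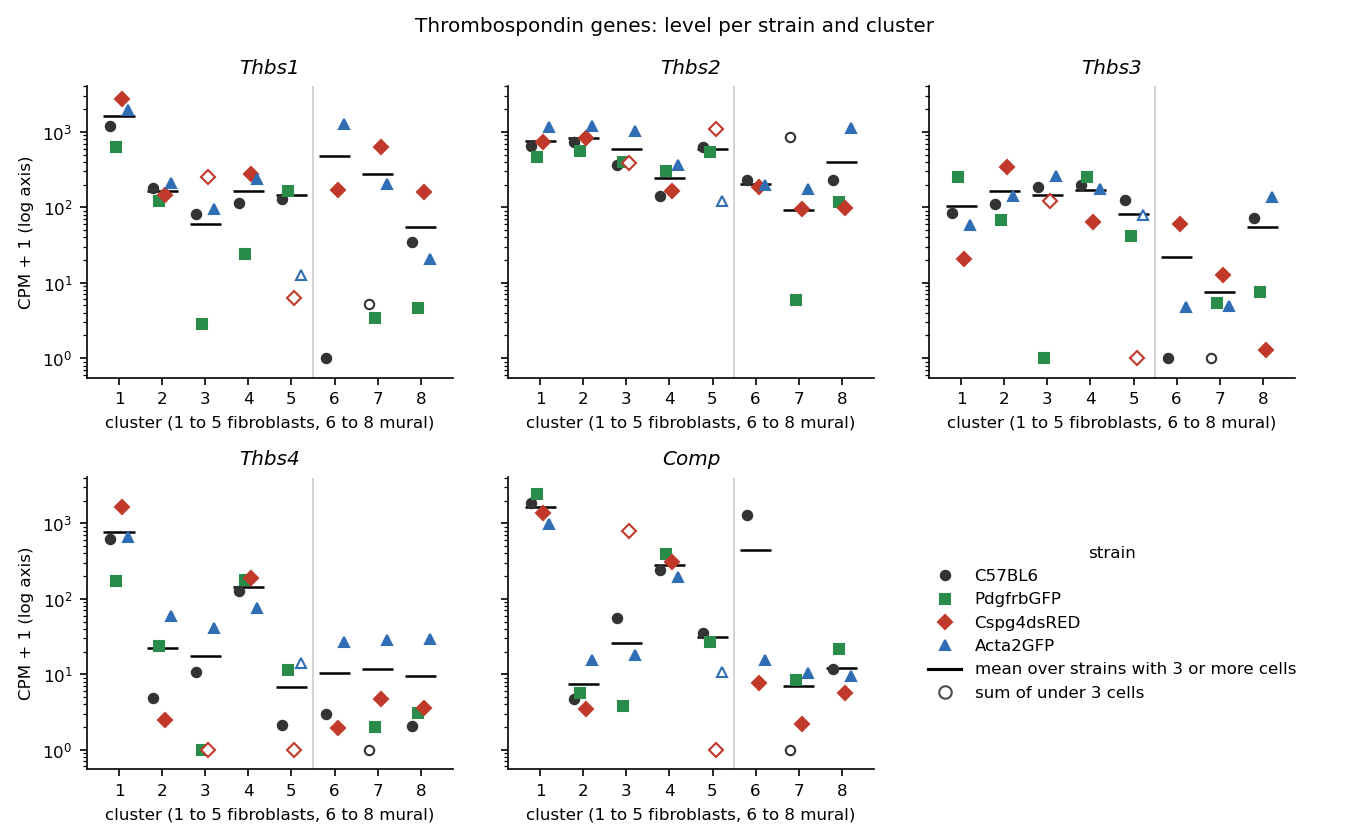
CPM + 1 of the summed counts on a log axis, by cluster (horizontal axis), with a panel per gene, a symbol per strain, filled for sums of at least 3 cells and open for fewer, and a black bar for the mean over strains with at least 3 cells. The means of Thbs1, Thbs4 and Comp peak in cluster 1, those of Thbs4 and Comp are next highest among fibroblast clusters in cluster 4, the C57BL6 cells of cluster 6 stand out for Comp (1291 CPM), and Thbs2 lies near the same height in clusters 1, 2, 3 and 5.

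Divided by exon length, the levels can be compared between genes. In cluster 1, Comp was highest with 563 ± 216 CPM per kilobase, followed by Thbs1 with 267 ± 148.7, Thbs4 with 237 ± 191, Thbs2 with 106.4 ± 41.1 and Thbs3 with 21.3 ± 21.3 (SD, n = 4 strains each). This order is that of the means. In the 3 Cspg4dsRED cells Thbs4 (504.6) lay above Comp (466.2), and in Acta2GFP Comp (330.6) and Thbs1 (320.6) lay close. In cluster 2, Thbs2 was highest with 118.1 ± 37.4 CPM per kilobase, and Comp had 2.14 ± 1.90. In cluster 4, Comp again led, with 95.2 ± 28.5 CPM per kilobase, ahead of Thbs4 with 43 ± 15.98, Thbs3 with 35.5 ± 16.7 and Thbs2 with 34.6 ± 15.1. Thbs4 was not second there in C57BL6 (38.5 against 40.6 for Thbs3) or in Acta2GFP (22.5 against 51.6 for Thbs2). The gene with the highest mean thus differed between the fibroblast clusters on this scale. In cluster 7 Thbs1 had the highest mean, with 45.4 ± 52 CPM per kilobase (n = 3). It did not lead in PdgfrbGFP, with 0.404 CPM per kilobase against 2.48 for Comp.

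The share of cells at 100 CPM or more ran from 0 to 65.3% over the genes and clusters, and it was 0 for Thbs4 in cluster 6 (0 of 39 cells, which allows up to 7.69%) and cluster 8 (0 of 196, up to 1.53%) and for Comp in cluster 7 (up to 2.54%). Thbs1 reached 100 CPM in 64.3% of the cells of cluster 1 (95% Wilson interval 52.6 to 74.5%), in 34.7% of the cells of cluster 7 (26.8 to 43.7%) and in 1.53% of the cells of cluster 8 (0.522 to 4.40%). Thbs2 reached it in 65.3% of cluster 2 (58.8 to 71.3%), 62.9% of cluster 1 (51.1 to 73.2%) and 34.8% of cluster 4 (28.9 to 41.1%). Thbs3 did so in 33.9% of cluster 3 (25.8 to 43.1%) and 0.848% of cluster 7 (0.150 to 4.64%). The shares pool the strains, and since copies of 1 molecule can be read several times, each interval or limit speaks of counting error alone. Thbs4 was rarer: 21.4% of cluster 1 (13.4 to 32.4%) and 10.3% of cluster 4 (7.02 to 14.9%) reached 100 CPM, and its highest cell in cluster 8 had 89.1 CPM. Within strains the order of these clusters was not the same, since the share was lower in cluster 1 than in cluster 4 in PdgfrbGFP (9.09% against 13.2%) and Acta2GFP (19.2% against 25%). The median cell of cluster 1 had 9.12 CPM of Thbs4 and the highest cell 7132 CPM, so the level of that cluster rests on a minority of its cells. Comp reached 100 CPM in 61.4% of cluster 1 (49.7 to 71.95%), 18.5% of cluster 4 (14 to 23.9%) and 0.457% of cluster 2 (0.0806 to 2.54%).

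**Figure D3:**
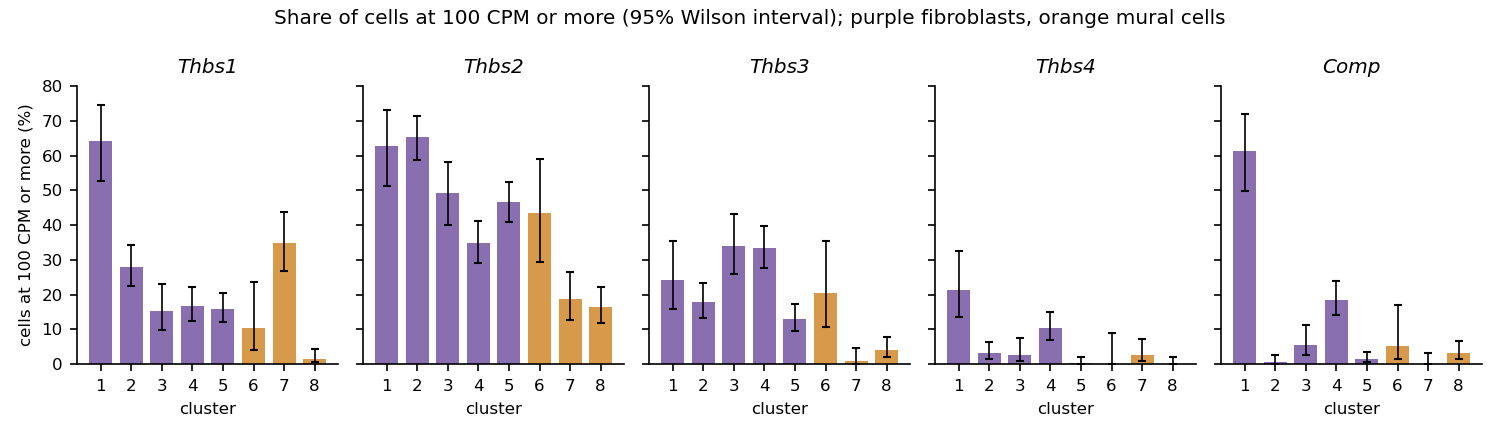
Percent of cells at 100 CPM or more (vertical axis) by cluster (horizontal axis), with a panel per gene, purple for fibroblast clusters, orange for mural clusters, and bars for 95% Wilson intervals over the pooled cells of a cluster. Thbs1 and Comp are highest in cluster 1 (64.3% and 61.4%), Thbs2 in clusters 2 and 1 (65.3% and 62.9%), and Thbs4 in clusters 1 and 4 (21.4% and 10.3%, an order that holds for pooled cells and is the other way in 2 of 4 strains).

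In clusters 1 and 4, cells with Thbs4 held Comp more often than the other cells did. In cluster 1, all 15 cells with Thbs4 at 100 CPM or more also had Comp at that level, compared with 50.9% of the other 55 cells. In cluster 4, 11 of the 24 Thbs4 cells (45.8%) had Comp, compared with 32 of the other 209 (15.3%). Within cluster 4 the share was the higher among Thbs4 cells in each strain, at 50% against 15.7% in C57BL6, at 71.4% against 19.6% in PdgfrbGFP, at 100% against 16.7% in Cspg4dsRED (1 Thbs4 cell) and 20.0% against 6.67% in Acta2GFP. Thbs4 cells and the other cells of cluster 4 had median counts of 348191 and 349816, and median numbers of detected genes of 5238 and 4571. In cluster 1 the Thbs4 cells were deeper, with medians of 388599 counts and 5501 genes compared with 332712 and 4718, and so were the Thbs1 cells, with 408081 counts compared with 274715. Thbs1 was also at 100 CPM or more in 13 of the 15 Thbs4 cells of cluster 1 and in 9 of the 24 of cluster 4. Thbs4 reached that level in 28.9% of the Thbs1 cells and 8% of the others in cluster 1, and in 23.1% and 7.73% in cluster 4, but in Acta2GFP, which had 10 of those 24 cells, the shares were 21.4% and 26.9%. In cluster 2, 0 of 7 Thbs4 cells had Comp. Thbs2 was held by 13 of the 15 Thbs4 cells of cluster 1. Thbs4 was in 29.55% of the Thbs2 cells and 7.69% of the others in cluster 1, and in 9.88% and 10.5% in cluster 4. These are descriptions of cells that share plates, without a test. In cluster 1, 7 of 70 cells had all 5 genes at 100 CPM or more and 5 cells had none of them, whereas 77.04% of the 196 cells of cluster 8 had none.

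**Figure D4:**
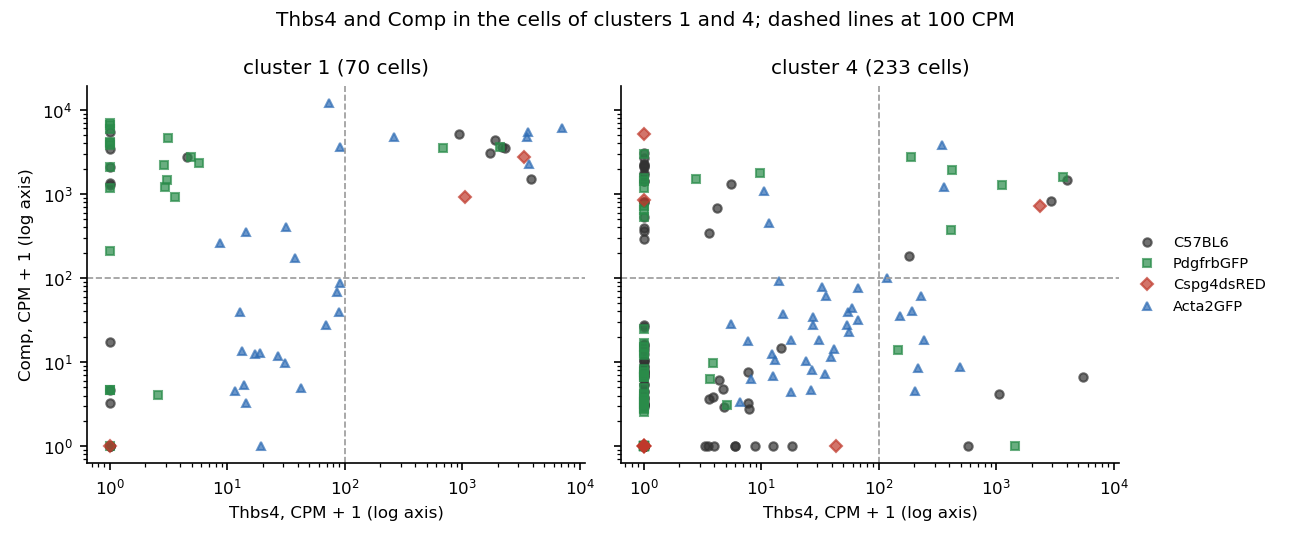
Comp against Thbs4 in single cells of clusters 1 (70 cells) and 4 (233 cells), both as CPM + 1 on log axes, with a symbol per strain and dashed lines at 100 CPM. In cluster 1 all 15 cells to the right of the vertical line lie above the horizontal line, and in cluster 4 11 of 24 do.

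Cluster 1 was compared with clusters 2 to 5, the other fibroblasts, in 4 strains. Thbs4 was higher in cluster 1, with 168.96 to 1660 CPM against 38.7 CPM in C57BL6, 62.6 CPM in PdgfrbGFP, 93.8 CPM in Cspg4dsRED and 61.1 CPM in Acta2GFP. The lowest cluster 1 value was above the highest value of the other side, but without the cell that held 78.1% of the PdgfrbGFP reads it was 39.5 CPM, within the range of the other side. The difference was 3.54 on the log2 scale (SE 0.57, adjusted p = 0.0122 in edgeR's quasi-likelihood test with Benjamini-Hochberg adjustment over 13201 genes, and 6.37e-07 to 0.153 over the alternatives). The call was lost without C57BL6 (adjusted p = 0.134) and without Acta2GFP (0.153), and also when the cell with most Thbs4 reads was left out of each sum (log2 difference 3.90, adjusted p = 0.0821), a setting chosen after seeing the data. Thbs2 and Thbs3 did not pass, with log2 differences of 0.41 (SE 0.30, adjusted p = 0.888) and -0.47 (SE 0.65, adjusted p = 0.990). Of these 3 genes 1 was called, compared with 1.33% of all genes tested. The study names Thbs1 and Comp for these cells, so their differences are given without a test: 3.29 on the log2 scale for Thbs1 (SE 0.42, 104.5 to 216 CPM in clusters 2 to 5) and 3.73 for Comp (SE 0.43, 86.6 to 209 CPM in clusters 2 to 5). All 3 of Thbs1, Thbs4 and Comp had no overlap between the sides, higher in cluster 1, as did 2.61% of all genes tested. The authors made the clusters from these same counts, so p-values between clusters are not independent of how the cells were grouped.

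Among clusters 2, 3, 4 and 5, a test across all 4 asked whether the members were even over the remaining fibroblasts. Comp differed (F = 18.4, adjusted p = 0.0203 in edgeR, 1.91e-08 to 0.262 over the alternatives), and 0.301% of the 16629 genes tested were called. The call did not hold with the strain as a block (adjusted p = 0.0735), nor when any strain was left out: it was 0.0921 without Cspg4dsRED, 0.117 without Acta2GFP, 0.136 without PdgfrbGFP and 0.262 without C57BL6. Among sums of at least 3 cells, which in Cspg4dsRED leaves cluster 2 alone for comparison, cluster 4 had the highest Comp level in 4 of 4 strains, and the highest Thbs4 level too, though Thbs4 did not pass (adjusted p = 0.546). A single Cspg4dsRED cell of cluster 3, outside these sums, had 789 CPM of Comp. In Acta2GFP the Thbs4 levels lay close, at 73.9 CPM in cluster 4 and 57.8 CPM in cluster 2. Thbs2 was lowest in cluster 4 in 4 of 4 strains among the same sums, without passing (adjusted p = 0.235), while 2 Acta2GFP cells of cluster 5 had a lower level of 119.9 CPM. The C57BL6 plates differed, since cluster 3 had 491.5 CPM of Thbs2 on the plate with 329 cells and 53.77 CPM on the plate with 251 cells, where cluster 4 had 143.1 CPM and was not the lowest. Thbs1 and Thbs3 had an adjusted p of 1.000 each, and their highest cluster differed between strains.

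Fibroblasts (clusters 1 to 5) were then compared with mural cells (clusters 6 to 8), the main division of the study. Thbs4 was higher in fibroblasts, with 59.4 CPM in C57BL6, 74.5 CPM in PdgfrbGFP, 214 CPM in Cspg4dsRED and 193 CPM in Acta2GFP against 1.16, 1.99, 2.66 and 27.8 CPM in mural cells. The sides did not overlap, and the log2 difference was 3.98 (SE 1.02, adjusted p = 0.0476 in edgeR, 0.000390 to 0.179 over the alternatives). This call lay at the threshold: it was lost with DESeq2 size factors (0.0507), without C57BL6 (0.110), PdgfrbGFP (0.143) or Cspg4dsRED (0.179), and without the C57BL6 cells of cluster 6 (0.0502). It was also lost without clusters 1 and 6 (log2 difference 2.88, adjusted p = 0.122), and without the cell with most Thbs4 reads in each sum (3.56, adjusted p = 0.0862). Of the 5 members 1 was called, compared with 5.93% of the 15117 genes tested.

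Thbs3 had 146.6, 126.2, 167.4 and 144.5 CPM in fibroblasts of C57BL6, PdgfrbGFP, Cspg4dsRED and Acta2GFP, against 60.8, 6.37, 24.2 and 47.5 CPM in mural cells. The sides did not overlap, yet the difference of 2.08 on the log2 scale (SE 0.56) had an adjusted p of 0.0569 in edgeR (0.00878 to 0.212 over the alternatives), and of these alternatives DESeq2 called it (0.00878). Thbs3 and Thbs4 were the 2 members whose strains were all higher in fibroblasts without overlap, as in 9.06% of all genes. Thbs2 was higher in fibroblasts in 4 of 4 strains, with a log2 difference of 1.27 (SE 0.47, adjusted p = 0.173), and passed when the strain was a block (1.49, adjusted p = 0.0477, with a range of 0.0477 to 0.416 over the alternatives). Thbs1 differed by 0.98 (SE 1.01, adjusted p = 0.736) and within strains by 0.04 in Cspg4dsRED, 1.29 in Acta2GFP, 2.48 in C57BL6 and 5.17 in PdgfrbGFP. Without clusters 1 and 6 its difference was -0.04.

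Comp had 151.7 CPM in C57BL6, 390 CPM in PdgfrbGFP, 299 CPM in Cspg4dsRED and 282 CPM in Acta2GFP in fibroblasts, against 161.9, 19.1, 3.504 and 9.51 CPM in mural cells. It was higher in fibroblasts in 3 of 4 strains, and the difference of 2.55 (SE 1.00, adjusted p = 0.210) did not pass. Without the 3 C57BL6 cells of cluster 6 it was 4.68 (adjusted p = 0.00150), without all C57BL6 cells 4.86 (adjusted p = 0.0145), and without clusters 1 and 6 it was 3.58 (adjusted p = 0.00972). With those cells kept, Comp was called in limma on mean CPM per cell. In edgeR the result for Comp thus changed with those cells, of which 1 held nearly all of the reads.

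Cluster 1 on its own was also set against mural cells, which share no sums with it. Thbs4 was higher by 6.46 on the log2 scale (SE 1.15, adjusted p = 0.0106 in edgeR, 2.42e-09 to 0.0707 over the alternatives) and Comp by 5.10 (SE 1.08, adjusted p = 0.0273, 6.69e-06 to 0.178 over the alternatives). These 2 of 5 members were called, compared with 3.04% of the 12575 genes tested. Because the study names Comp and Thbs1 for cluster 1, their values here are not independent evidence, and of the other 3 members Thbs4 was called. Without the C57BL6 cells of cluster 6, Comp differed by 7.26 (adjusted p = 0.000348). Without the cell with most Thbs4 reads in each sum, Thbs4 differed by 5.80 (adjusted p = 0.0302). Thbs4 did not pass without C57BL6 (0.0707) or Cspg4dsRED (0.0619), and Comp did not pass without PdgfrbGFP (0.178), Cspg4dsRED (0.0607) or Acta2GFP (0.0887). Thbs1 differed by 3.24 (SE 1.03, adjusted p = 0.157) and Thbs2 by 1.59 (SE 0.49, adjusted p = 0.146). Both passed with the strain as a block, at 4.5 for Thbs1 and 1.78 for Thbs2 (adjusted p = 0.0432 each). Thbs1 also passed in DESeq2 (0.0152), in limma (0.0241) and without the filter (0.0464), with a range of 0.0152 to 0.407 over the alternatives. Thbs1, Thbs4 and Comp did not overlap between the sides, as 4.38% of genes did in that direction, and Thbs3 differed by 1.64 (SE 0.89, adjusted p = 0.572). This comparison shares its cluster 1 sums with the one against clusters 2 to 5 and its mural sums with the one before.

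Within mural cells, edgeR called no member. Cluster 6 was compared with clusters 7 and 8 in 3 strains, where edgeR called 0 of 5 members (1 at an unadjusted p under 0.05) and 0.0330% of 12117 genes, and DESeq2 called 0 of 4. The largest difference was that of Comp, 5.86 (SE 1.75, adjusted p = 0.453), which passed without the filter on low counts (0.000743) and without Acta2GFP (0.00523). Without C57BL6, the strain of the single cell described above, it was 1.12 (adjusted p = 0.978). The median gene differed by -0.32 in that comparison, and by -0.17 with DESeq2 size factors. Cluster 8 was compared with cluster 7 in 3 strains, where edgeR called 0 of 5 members (0 at an unadjusted p under 0.05) and 0.194% of 11867 genes, and DESeq2 called 0 of 4. Thbs2 was higher in cluster 8 by 2.36 (SE 1.16, adjusted p = 0.769), from 116.4 against 4.91 CPM in PdgfrbGFP, 97.05 against 92.6 CPM in Cspg4dsRED and 1125 against 175.3 CPM in Acta2GFP. Thbs1 was lower in cluster 8 (log2 difference -2.21, SE 1.47, adjusted p = 0.945), with 160.9 against 622 CPM in Cspg4dsRED and 19.6 against 204 CPM in Acta2GFP but 3.67 against 2.45 CPM in PdgfrbGFP. The median gene differed by 0.18, and by 0.04 with DESeq2 size factors. Standard errors in these mural comparisons ran from 0.77 to 1.99 on the log2 scale, wider than the 0.30 to 0.65 of cluster 1 against clusters 2 to 5.

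**Figure D5:**
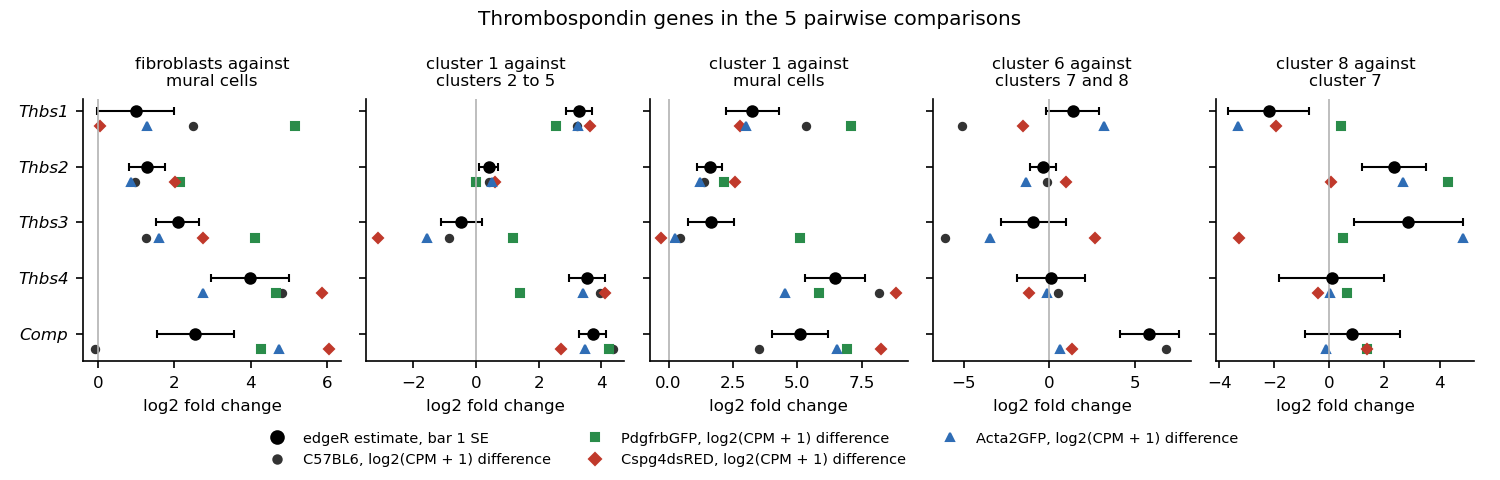
Log2 fold change of each gene (horizontal axis, first side minus second side) in the 5 comparisons of a pair of sides, with a large black point and a bar of 1 standard error for the edgeR estimate and a small symbol per strain for the difference of log2(CPM + 1) within it. Thbs4 lies to the right of 0 in the 3 comparisons with fibroblasts or cluster 1 on the first side (3.98, 3.54 and 6.46), and the bars are widest in the mural comparisons.

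The receptors, partners and proteases of thrombospondins were described from lists chosen with earlier results of these data known. Of 15 receptor genes tested between fibroblasts and mural cells, 1 was higher in fibroblasts and 1 lower, compared with 5.93% of all genes called, with a list median of -0.83 against -0.02 over all genes. DESeq2 called 4 of the 15, compared with 12.7% of all genes it tested. The lower gene was Cd36, the scavenger receptor bound by thrombospondin-1 and thrombospondin-2, whose fibroblast level was 9.97 ± 6.87 CPM and whose mural level was 263 ± 172.9 CPM (SD over 4 strains). Cluster 6 was low among the mural clusters, at a mean of 3.33 CPM of Cd36, whereas clusters 7 and 8 had means of 347 and 410 CPM. The log2 difference of Cd36 between fibroblasts and mural cells was -4.82 (SE 0.78, adjusted p = 0.00587). The higher gene was Lrp1, an endocytic receptor that clears thrombospondins, with 757 ± 148.6 against 240 ± 51.7 CPM (1.64, adjusted p = 0.00487). Cd36 was lower in cluster 1 than in mural cells too (-5.56, adjusted p = 0.00964, up to 0.0829 over the alternatives), and between cluster 1 and clusters 2 to 5 edgeR called 0 of 15 receptor genes, compared with 1.33% of all genes (3 at an unadjusted p under 0.05, and 2 by DESeq2, which called 5.22% of all genes).

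Matrix partners, which bind COMP or other thrombospondins, were higher in fibroblasts for 4 of 6 genes tested, compared with 5.93% of all genes called, with a list median of 2.10. Among them were the proteoglycan gene Dcn (3.06, adjusted p = 0.00476), the matrilin gene Matn2 (2.73, adjusted p = 0.00527) and the collagen gene Col1a1 (2.35, adjusted p = 0.000605). Over the alternatives the adjusted p of Matn2 reached 0.0509. Dcn, Col1a1 and Col1a2, all higher in fibroblasts, are also fibroblast markers, so the count for this list is not independent evidence. Matn2 was lower in cluster 1 than in clusters 2 to 5 (239 ± 73.6 against 576 ± 70.1 CPM, -1.28, adjusted p = 0.0495, up to 0.404 over the alternatives), the only 1 of 6 partners that passed there, compared with 1.33% of all genes. Among clusters 2 to 5, the fibronectin gene Fn1 was called just under the threshold (1 of 7 partners tested, compared with 0.301% of all genes, with adjusted p up to 0.571 over the alternatives). Of 6 proteases, Mmp2 was higher in fibroblasts than in mural cells (2224 ± 166.1 against 215 ± 89.9 CPM, 3.33, adjusted p = 0.000651). It was the only 1 of the 6 called, compared with 5.93% of all genes. Of the 7 genes of the latent TGF-beta complex and its binding proteins, edgeR called 0 in that comparison, compared with 5.93% of all genes (2 at an unadjusted p under 0.05, and 1 by DESeq2). Ltbp3 was higher in cluster 1 than in mural cells (2.15, adjusted p = 0.0217, up to 0.161 over the alternatives), as 1 of 7 genes compared with 3.04% of all genes. There 0 of the 7 passed in edgeR with the strain as a block. Of 10 genes for protein folding in the endoplasmic reticulum, where thrombospondin-4 also acts, Pdia4 (1.15, adjusted p = 0.0284) and P4hb (0.96, adjusted p = 0.0429) were higher in fibroblasts. These were 2 of the 10, compared with 5.93% of all genes. Over the alternatives their adjusted p reached 0.157 and 0.20, and 1 of the 10 genes passed with the strain as a block. In cluster 1 against clusters 2 to 5, edgeR and DESeq2 called 0 of the 10 (0 at an unadjusted p under 0.05), and edgeR called 1.33% of all genes.

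The tendon and valve list held genes known from connective tissues rich in COMP and thrombospondin-4. In cluster 1, 5 of 9 genes tested were higher than in clusters 2 to 5, compared with 1.33% of all genes called, and the list median was 5.21 against -0.03 over all genes. The secreted Wnt inhibitor gene Wif1 had 1392 ± 399 against 2.66 ± 2.71 CPM (9.01, adjusted p = 0.00236). The matrix gene Cilp2 had 119.2 ± 110.2 against 0.446 ± 0.417 CPM (8.06, adjusted p = 0.00769), and Scx, a transcription factor gene of tendon, had 148.6 ± 44.2 against 0.695 ± 0.582 CPM (7.63, adjusted p = 0.00298). Over the alternatives the adjusted p reached 0.168 for Cilp2, 0.0794 for Scx and 0.0416 for Wif1. The study named Wif1 and Fmod for the cells of cluster 1, so the count for this list is not independent evidence. Between fibroblasts and mural cells, 5 of 10 genes of the list were higher (5.93% of all genes were called), and between cluster 1 and mural cells 6 of 9 (3.04% of all genes). With the strain as a block these counts were 3 and 5. The summed list averaged 4649 CPM in cluster 1, 39.4 to 152.9 CPM in clusters 2 to 5 and 54.3 to 201 CPM in clusters 6 to 8, and Wif1 in clusters 2 to 5 lay under its mural level of 9.59 ± 6.16 CPM. The higher fibroblast level of the list thus lay in cluster 1. In the first of these comparisons the adjusted p over the alternatives reached 0.684 for Scx and 0.820 for Wif1. Of 10 genes induced by tissue dissociation, Jun was higher in fibroblasts than in mural cells (1.48, adjusted p = 0.0253, up to 0.156 over the alternatives), and Atf3 was lower in cluster 8 than in cluster 7 (-4.11, adjusted p = 0.0314, up to 0.441). These were 1 of 10 genes each, compared with 5.93% and 0.194% of all genes. Between clusters 8 and 7, 7 of the 10 had an unadjusted p under 0.05 and DESeq2 and the strain block called 2 each, with a list median of -1.41 against 0.18 over all genes. The summed list averaged 4928 CPM in cluster 8, below the 12215 CPM of cluster 7. Thbs1 was also lower in cluster 8 in Cspg4dsRED and Acta2GFP. In PdgfrbGFP Thbs1 was not lower there (3.67 against 2.45 CPM), while the list had 4888 against 14748 CPM. The part of the list in the Thbs1 levels was not tested. Between cluster 1 and clusters 2 to 5, edgeR and DESeq2 called 0 of the 10 (3 at an unadjusted p under 0.05), and 1 was called with the strain as a block. Of all genes, edgeR called 1.33% there. The dissociation list summed to between 3867 and 13179 CPM in the strains of cluster 1. Its mean was 7891 CPM there and between 10902 and 21258 CPM in clusters 2 to 5. In Cspg4dsRED cluster 2 was not higher, with 6484 CPM against 6683 CPM in cluster 1. The part of the list in the levels of the members was not tested.

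Over the 27 sums of a strain and cluster with at least 3 cells, the highest correlation among members was that of Thbs4 with Comp (Pearson r = 0.732 of log2(CPM + 1)), followed by Thbs1 with Thbs4 (0.620) and Thbs2 with Thbs3 (0.505). Thbs2 with Comp (0.196) and Thbs3 with Comp (0.197) had the lowest. With a pseudocount of 10 CPM the lowest was Thbs1 with Thbs3 (0.162). The sums share strains, plates and clusters, so these are descriptions. Among 10326 genes, the genes most like Comp were Ptx3 (0.917), Fam167a, Zfhx4, Shisa2 and Zfp185, and those most like Thbs4 were Angptl7 (0.857), Gm17455, Prg4, Spp1 and Crispld1. Thbs1 was most like Gm29233 (0.922), the gene with which it shares exon bases on the opposite strand, followed by Me1, Vgll4, Casc3 and Shisa4. Thbs2 was most like Gfm2 (0.864), Mxra8, Itm2c and S100a6, and Thbs3 was most like Scap (0.909), Dpagt1, B3gnt9, Meg3 and Nradd. With a pseudocount of 10 CPM in place of 1, 6 of the 25 genes ranked in the first 5 of a member left them.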

How the data were processed

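Male mouse heart cells were measured in plates by Smart-seq2 with single reads of 50 bases. The deposited values were raw counts per gene and cell: the authors trimmed reads with Trim Galore, mapped them to GRCm38 with TopHat2, removed what they call doublets with samtools, counted with featureCounts and filtered cells by depth, genes, spike-ins and markers. No further doublet caller was run. Spike-ins, 1.82% of counts, were left out. Here counts were summed per strain and cluster (at least 3 cells) and compared with the edgeR 4.0.16 quasi-likelihood test (R 4.3.3, TMM, filterByExpr with a minimum count of 10, Benjamini-Hochberg adjustment over all genes, threshold 0.05). The fits were also run on simulated sums. These were drawn independently, with no strain effect and no single cell holding most reads, so they do not speak to those features. Same-strain sums share the strain and its sort. The main test did not pair them, and only the alternative with the strain as a block did. These sums share the plate except in C57BL6, whose mural cells came from 1 of 3 plates. Animals are not named in the labels. Deviations of both sides of a strain from their side means correlated with r between 0.015 and 0.199. Alternatives were DESeq2 1.42.0 and its size factors, limma 3.58.1 on mean CPM per cell, no filter, the strain as a block, sums per plate, 10 cells per sum, leaving out strains, and a pseudocount of 10 CPM. Members and lists (all members, per list at most 3 called genes of 1 direction in every strain, and the 5 most alike genes) were chosen with earlier results of these data known. Differences within strains are of log2(CPM + 1). Depth per cell was 46268 to 1302397 counts. Of the genes ranked by likeness to a member, 1 is not reported here.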

Additional observations from a re-analysis of the deposited data

Results flagged for a closer look

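In 6 of 35 groups of 4 strains, 1 strain stood apart from the others by Dixon's test, which chance does in about 1 in 20 groups, although some of these groups share cells (clusters 2 to 5 lie within clusters 1 to 5, and cluster 8 within clusters 6 to 8). Acta2GFP stood above the other strains in 5 of them. Its cells had a median of 6388 detected genes, compared with 3358 to 4265 in the other strains, at a median of 301141 counts compared with 245768 to 296338. Its Thbs2 level was 1125 CPM in cluster 8 (97.05 to 230 CPM in the others), 884 CPM in clusters 1 to 5 (471 to 496 CPM) and 810 CPM in clusters 2 to 5 (471 to 478 CPM). Its Thbs4 level was 28.5 CPM in cluster 8 (1.08 to 2.55 CPM) and 27.8 CPM in clusters 6 to 8 (1.16 to 2.66 CPM). On the Acta2GFP plate 99.3% of cells under 100 CPM of Thbs4 had a read of it, and the part of this in the level was not tested. Comp in clusters 6 to 8 was 161.9 CPM in C57BL6 and 3.504 to 19.1 CPM in the other strains, and 1 cell of cluster 6 held nearly all of those reads.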

How the results depend on the processing

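The share of tested genes called was 5.93% for fibroblasts against mural cells, 1.33% for cluster 1 against clusters 2 to 5, 3.04% for cluster 1 against mural cells, 0.0330% for cluster 6 against 7 and 8, 0.194% for cluster 8 against 7 and 0.301% among clusters 2 to 5. DESeq2 gave 12.7%, 5.22%, 7.55%, 2.81%, 3.2% and 2.77% in that order. Limma gave 9.22% for the first, 2.36% for the second, 0.379% for cluster 8 against 7 and 0.511% among clusters 2 to 5. Without the filter the shares were 0.418% for cluster 6, 0.855% for cluster 8 against 7 and 0.284% among clusters 2 to 5. With the strain as a block, in which sums of a strain are paired, they were 0.742% for cluster 1 against clusters 2 to 5, 0.883% for cluster 6 and 0.691% for cluster 8 against 7. Besides those given in the report, the block changed no call of a member. DESeq2 size factors gave 0.379% for cluster 8 against 7 (12 genes higher and 33 lower, compared with 10 and 13), and sums per plate gave 0.884% among clusters 2 to 5. Sums of at least 10 cells gave 0.748% for cluster 1 against clusters 2 to 5, 1.96% for cluster 1 against mural cells, 0% for cluster 8 against 7 and no value for cluster 6. Without the cell with most Thbs4 reads in each sum, chosen after seeing the data and with sums of at least 2 cells, the share was 0.704% for cluster 1 against clusters 2 to 5. Leaving out 1 strain gave 2.66% to 3.91%, 0.201% to 0.748%, 0.919% to 1.96%, 0% to 0.495%, 0% to 0.987% and 0% to 0.133%.

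Log2 differences of members turned in 15 cases, and the cause was not tested. Thbs1 between fibroblasts and mural cells was -0.04 without clusters 1 and 6. In cluster 6 against 7 and 8, Thbs1 was -1.20 with limma, -1.26 with the block and -1.60 to 3.17 when 1 strain was left out. Thbs2 there was 0.20 with limma and -0.73 to 0.22 when 1 strain was left out, and Thbs3 was -4.66 to 0.14. Thbs4 there was -0.12 without the filter, -0.43 with limma, -0.29 with the block, and -0.77 to 0.17 when 1 strain was left out (-0.02 without C57BL6). In cluster 8 against 7, Thbs3 was -1.29 to 4.03 when 1 strain was left out, and Thbs4 was -0.09 without the filter and -0.17 to 0.13 when 1 strain was left out. The comparisons within mural cells had 3 strains.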
